A study of Homo sapiens with 9 samples.

Results

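The 59 genes described here encode proteins of endocytosis and membrane trafficking: clathrin and its adaptors, dynamins, membrane-bending proteins, sorting nexins, coat proteins of the secretory pathway, the exocyst and a few related proteins. They were taken from a list of gene symbols, and a QKI-5 peak was counted for a gene when the peak lay on the gene's strand and its centre fell within the span of the protein-coding gene. Of the 59 genes, 41 had at least 1 peak, and together they held 318 of the 20913 peaks that lay in protein-coding genes. Across all 20163 protein-coding genes on nuclear chromosomes, 4750 had a peak, which is 23.6%.

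The peaks came from HITS-CLIP, in which proteins are crosslinked to RNA in living cells by ultraviolet light, 1 protein is immunoprecipitated, and the RNA fragments bound to it are sequenced. The cells were mesHMLE, a mesenchymal line made from HMLE, an immortalised human mammary epithelial line, by exposure to TGF-β1 at 2.5 ng/ml for at least 14 days and then kept without it, and all were irradiated with 600 mJ/cm2. There were 7 libraries from immunoprecipitation with an antibody to QKI-5, the nuclear isoform of the RNA-binding protein Quaking, of which 3 came from the gel region of the QKI-5 monomer and 4 from that of the dimer, 1 of these made with SuperScript IV, and there were 2 libraries of size-matched input. The labels number the libraries as technical replicates of this 1 cell line in 1 condition. The authors pooled libraries made with the same antibody before calling peaks, and the size-matched input served as the control. A peak of the deposited list therefore has no value per library and no replicate error, and its depth is unknown.

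Clathrin-mediated endocytosis begins when adaptor proteins such as AP-2 gather cargo receptors and recruit clathrin, proteins with BAR domains bend the membrane, and dynamin cuts the vesicle free. Sorting nexins, EHD proteins and RAB11 effectors return cargo from endosomes, COPII coats carry cargo out of the endoplasmic reticulum, and the exocyst tethers vesicles at the plasma membrane. Many of these proteins exist in forms that differ by 1 short exon, and QKI proteins bind RNA at ACTAAC or ACTAAT, as written in DNA letters, often beside a further short copy of the end of that motif, and alter the inclusion of neighbouring exons.

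The sequences of 8 peaks are given first, because they lie at the exons on which the description turns. The first 6 are peaks that overlap, or lie within 250 nt of, exons known to change in inclusion with QKI-5, 1 for each of 6 exons and the tallest outside an annotated 3′ UTR, and the last 2 were added from the 4 tallest peaks that hold ACTAAC, the other 2 of which are already among the 6. They are given from hg19, read from the GRCh37 genome 5′ to 3′ on the gene's strand as DNA, and capitals mark ACTAAC and ACTAAT and, where it stands alone, TAAC.
SEC16A, overlapping exon 30, chr9:139339372-139339525, minus strand: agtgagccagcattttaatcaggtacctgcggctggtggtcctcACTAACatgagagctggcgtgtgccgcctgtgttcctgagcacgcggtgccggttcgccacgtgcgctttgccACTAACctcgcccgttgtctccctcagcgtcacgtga
CAST, 3′ of exon 5, chr5:96062578-96062673, plus strand: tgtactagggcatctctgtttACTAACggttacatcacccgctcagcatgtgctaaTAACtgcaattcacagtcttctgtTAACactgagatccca
SEC16A, 3′ of exon 29, chr9:139339999-139340082, minus strand: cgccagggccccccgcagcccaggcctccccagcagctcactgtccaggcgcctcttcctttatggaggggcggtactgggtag
DNM2, 3′ of exon 14, chr19:10919296-10919506, plus strand: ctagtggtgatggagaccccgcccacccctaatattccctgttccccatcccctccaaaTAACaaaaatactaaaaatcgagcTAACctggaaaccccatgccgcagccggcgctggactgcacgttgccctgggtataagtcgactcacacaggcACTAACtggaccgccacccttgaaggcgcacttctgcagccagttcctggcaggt
REPS1, 5′ of exon 10, chr6:139247664-139247733, minus strand: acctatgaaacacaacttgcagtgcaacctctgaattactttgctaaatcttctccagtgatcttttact
NUMB, overlapping exon 12, chr14:73746043-73746152, minus strand: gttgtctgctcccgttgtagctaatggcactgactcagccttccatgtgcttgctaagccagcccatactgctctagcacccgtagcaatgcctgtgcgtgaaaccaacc
BIN1, overlapping exon 7, chr2:127825666-127825887, minus strand: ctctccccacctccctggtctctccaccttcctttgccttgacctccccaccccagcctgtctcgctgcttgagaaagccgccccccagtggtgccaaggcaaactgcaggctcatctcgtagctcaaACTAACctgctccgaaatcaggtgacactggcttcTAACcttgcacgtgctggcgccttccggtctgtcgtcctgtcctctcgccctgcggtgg
FNBP1, intron 9, chr9:132686945-132687109, minus strand: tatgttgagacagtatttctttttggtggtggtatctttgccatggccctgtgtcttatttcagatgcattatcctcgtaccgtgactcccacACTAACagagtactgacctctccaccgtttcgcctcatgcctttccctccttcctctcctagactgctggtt

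The SEC16A peak at exon 30 held 2 copies of ACTAAC, and the CAST, DNM2, BIN1 and FNBP1 peaks held 1 each. The CAST and DNM2 peaks each held 3 TAAC sites in all, the ACTAAC included. The other 3 peaks, in SEC16A at exon 29 and in REPS1 and NUMB, held none of these motifs.

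Most of the trafficking genes carried a peak, and a small number carried very many. Among the 41 genes with a peak the median was 5.00 peaks, against 2.00 over all protein-coding genes with a peak. Exactly 1 peak was found in 8 genes, 2 to 7 peaks in 17 and at least 8 peaks in 16. Genes with at least 8 peaks thus made up 39.0% of the trafficking genes with a peak, and 15.8% of all protein-coding genes with a peak. DNM2, BIN1, SEC31A, NUMB and PICALM together held 150 of the 318 peaks, or 47.2%.

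**Figure D1:**
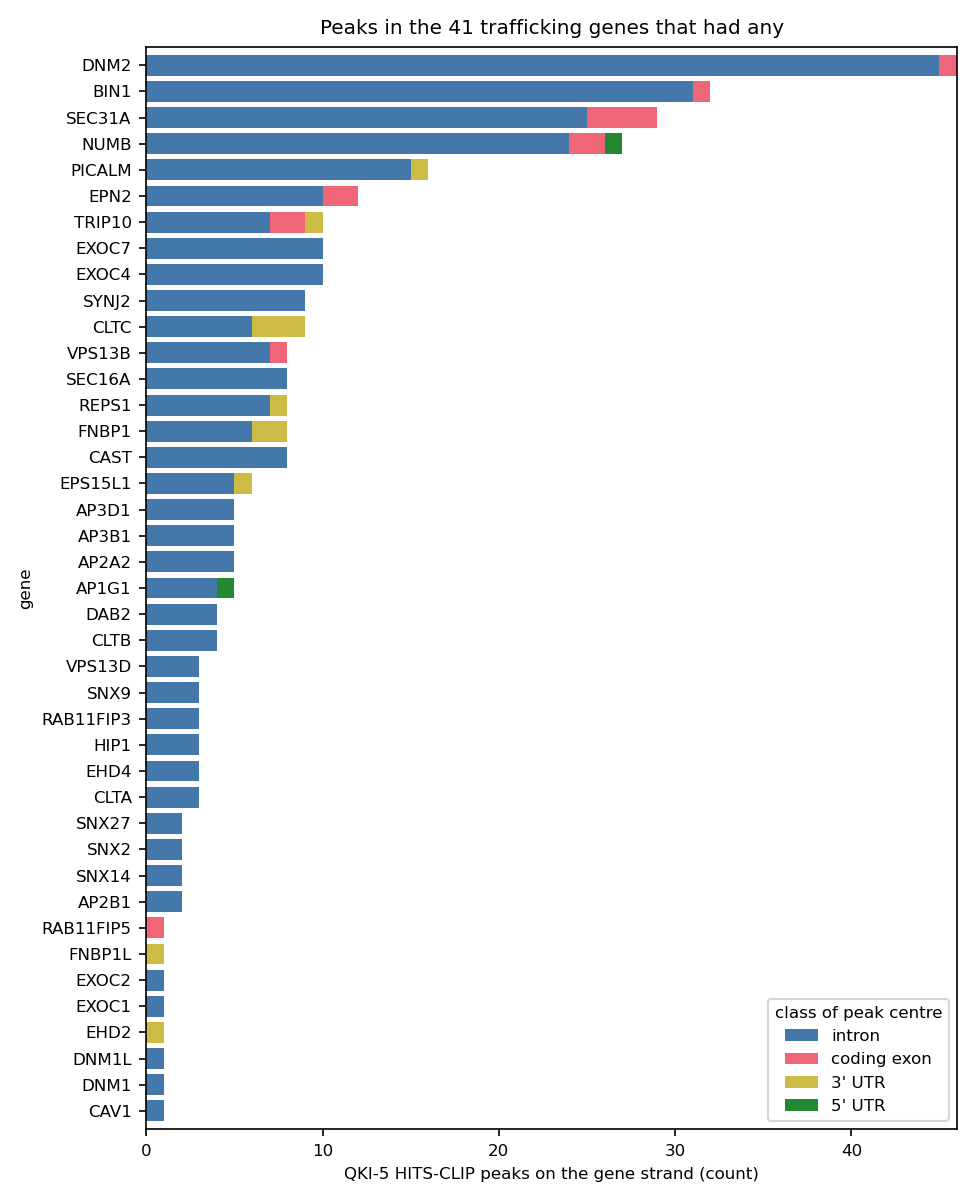
Number of QKI-5 peaks on the gene strand (x axis, count) in each of the 41 trafficking genes that had any (y axis), coloured by where the peak centre lay. DNM2 had 46 peaks, BIN1 32, SEC31A 29 and NUMB 27, nearly all of them intronic, and 8 genes had 1 peak.

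Genes without any peak were found in most groups of function. The 18 were AP1B1, AP2A1, AP2M1, GGA1 and GGA3 among the adaptors, NUMBL, EPN1, EPS15, REPS2, FCHO2 and HIP1R among cargo adaptors and accessory proteins, DNM3, AMPH and SYNJ1 among dynamins and their partners, SNX1, EHD1 and RAB11FIP1 in endosomal sorting, and SEC24B in the COPII coat. Their median span was 46.4 kb, against 89.4 kb for the 41 with a peak. The list holds no expression values, so a gene that was not bound cannot be told apart from a gene with little RNA in these cells. On the opposite strand, 9 peaks lay within the spans of 4 genes, 2 in NUMBL, 1 in DNM1L, 3 in CLTA and 3 in HIP1, and these were not counted.

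Trafficking genes are longer than most, and length was therefore set beside the counts. The median span of all protein-coding genes was 27.2 kb, and that of all protein-coding genes with a peak was 67.7 kb. Among genes with a span of 20 to 300 kb, 38 of 54 trafficking genes had a peak (70.4%), against 34.9% of 10833 protein-coding genes. Expression in these cells was not matched, and the 59 genes were chosen with earlier results of these data known. Of 99 other genes of the same pathways, of any span, 43.4% had a peak. Within the 59 genes the number of peaks followed the span only weakly, with a Spearman rho of 0.264 over genes, which are not replicates. DNM3 spans 601 kb and had no peak, EXOC4 spans 814 kb and had 10, and TRIP10 spans 13.6 kb and also had 10.

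**Figure D2:**
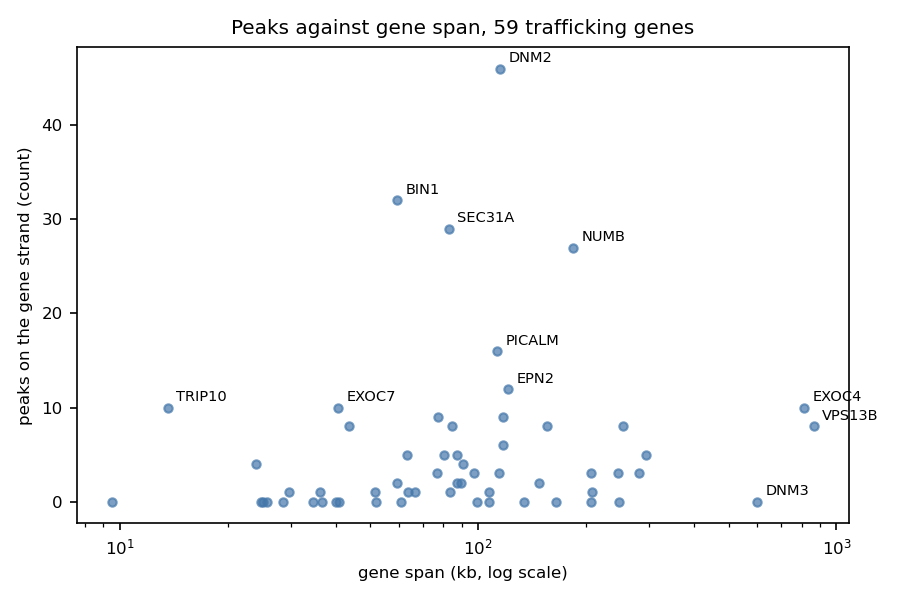
Number of peaks (y axis, count) against gene span (x axis, kb, log scale) for the 59 trafficking genes, 1 point per gene. DNM2 stands highest with 46 peaks in 115 kb, and DNM3, with a span of 601 kb, had none.

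Most peaks were intronic. Of the 318 peaks, 291 had their centre in an intron (91.5%, 95% Wilson interval 87.9 to 94.1), against 87.8% of the peaks in all protein-coding genes. Coding exons held 14 peaks (4.40%, against 2.33%), 3′ UTRs 11 (3.46%, against 8.21%) and 5′ UTRs 2 (0.629%, against 1.67%). Of the 11 peaks classed as 3′ UTR, only 6 lay in the last exon of the gene's canonical transcript, and the others lay at internal positions where a shorter annotated transcript ends, in CLTC, REPS1, PICALM and EPS15L1. The intervals here and below cover counting error only, and neighbouring peaks of 1 gene are not independent.

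Relative to peaks in all protein-coding genes, fewer of these peaks lay in exons or far from them, and more lay in the introns near exons. An exon held 27 of the peak centres (8.49%, 5.90 to 12.1), against 12.2% in all protein-coding genes. The 250 nt upstream of the nearest exon held 32 peak centres (10.1%, 7.22 to 13.9), against 4.20% in all protein-coding genes, and the 250 nt downstream held 28 (8.81%, 6.16 to 12.4), against 5.68%. A further 191 peaks (60.1%, against 48.1%) lay 251 to 5000 nt from an exon. Only 40 peaks (12.6%) lay over 5000 nt away, against 29.8%.

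The height of a peak is the whole number that the authors' list gives for the pooled signal at that peak, and it has meaning only within the list. The median height over the 318 peaks was 24.0, with quartiles of 19.0 and 38.0 and a range of 9 to 379, and that over the peaks of all protein-coding genes was 23.0, with quartiles of 18.0 and 32.0. A height of at least 100 was reached by 17 trafficking peaks (5.35%) and by 3.03% of peaks in all protein-coding genes. The tallest peaks of the genes were 379 in DNM2, 288 in NUMB, 203 in SEC16A, 182 in CLTC, 125 in TRIP10, 124 in FNBP1, 104 in BIN1 and 100 in PICALM. These 8 genes held all 17 peaks of that height.

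**Figure D3:**
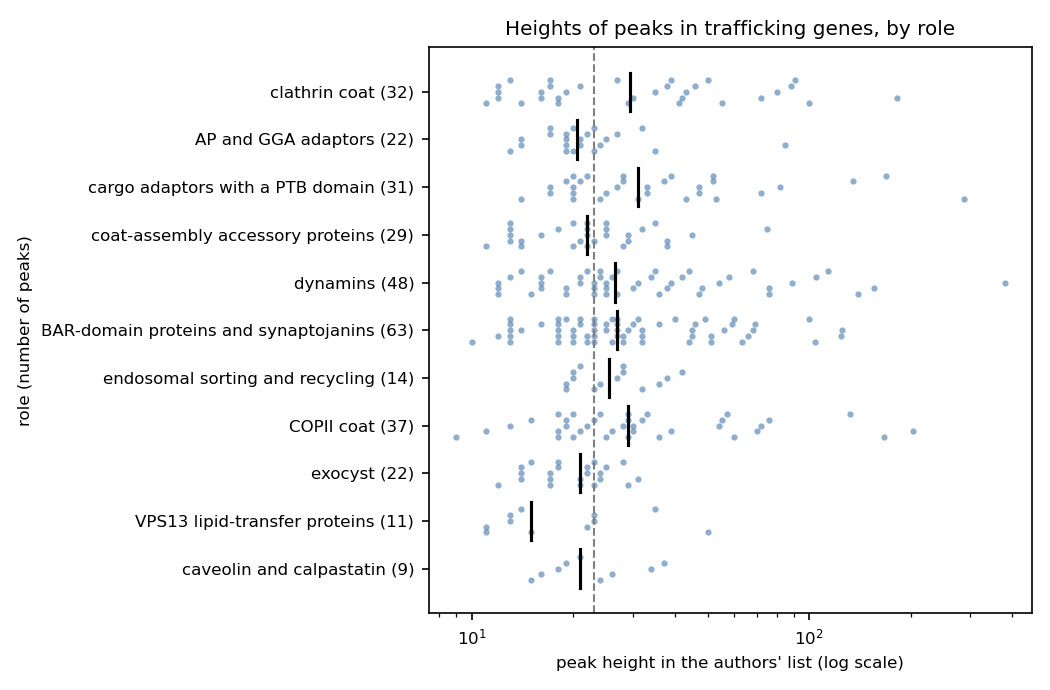
Height of each peak (x axis, log scale) by the role of the gene (y axis, with the number of peaks), with the black bar at the median of the role and the dashed line at 23.0, the median over peaks of all protein-coding genes. Medians run from 15.0 for the VPS13 proteins to 31.0 for the cargo adaptors with a PTB domain, and the tallest peak, at 379, is in a dynamin.

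The sequence ACTAAC, searched on the gene's strand, was found in 35 of the 318 peaks (11.0%, 8.02 to 14.9) and in 10.1% of the 24019 nuclear peaks of the list. Windows of the same length 500 nt to the 5′ side of the trafficking peaks held it in 3.14%, windows 500 nt to the 3′ side in 1.89%, and the opposite strand of the peaks in 0.943%. ACTAAC or ACTAAT was found in 13.5% of the trafficking peaks, in 13.7% of all nuclear peaks and in 5.97% and 5.35% of the windows. The shorter TAAC, which ACTAAC contains, was found in 24.8% of the trafficking peaks, in 26.0% of all nuclear peaks and in 16.0% and 19.2% of the windows. There were 36 ACTAAC sites in the 35 peaks, and 28 of them began within 25 nt of the peak summit. Peaks with ACTAAC had a median height of 34.0 (n = 35), against 24.0 for those without (n = 283), and 23 of the 41 genes had at least 1 such peak. Among all protein-coding genes with a peak, which held fewer peaks each, 33.2% had one. EXOC4 and VPS13B, which had 4 each, and CAST, which had 3, held the most. The tallest peak of all, in DNM2, and the tallest in NUMB, SEC16A, CLTC and TRIP10 had no ACTAAC. Of these, the CLTC peak held ACTAAT, the NUMB and TRIP10 peaks held TAAC, and the DNM2 and SEC16A peaks held neither. A match in this window is a description and shows no site of binding, and its absence shows nothing about QKI-5.

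Peaks were then placed against annotated cassette exons, which are internal exons that lie wholly within an intron of another protein-coding transcript of the gene. In the 41 genes, 36 of 216 cassette exons (16.7%, 12.3 to 22.2) were overlapped by a peak or had one no more than 250 nt away, against 12 of 686 constitutive internal exons (1.75%, 1.00 to 3.03). In all protein-coding genes with a peak, which held fewer peaks each, 6.06% of 13224 cassette exons and 2.18% of 55954 constitutive exons had such a peak. The 36 exons lay in 18 genes, counted as 31 when overlapping forms of 1 exon were joined, and 21 of them were overlapped by a peak. Exons of a length divisible by 3 made up 30 of the 36 (83.3%), against 56.9% of the 216. Without DNM2, BIN1, SEC31A, NUMB and PICALM the shares were 10.2% for cassette exons (6.57 to 15.6) and 1.29% for constitutive exons.

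**Figure D4:**
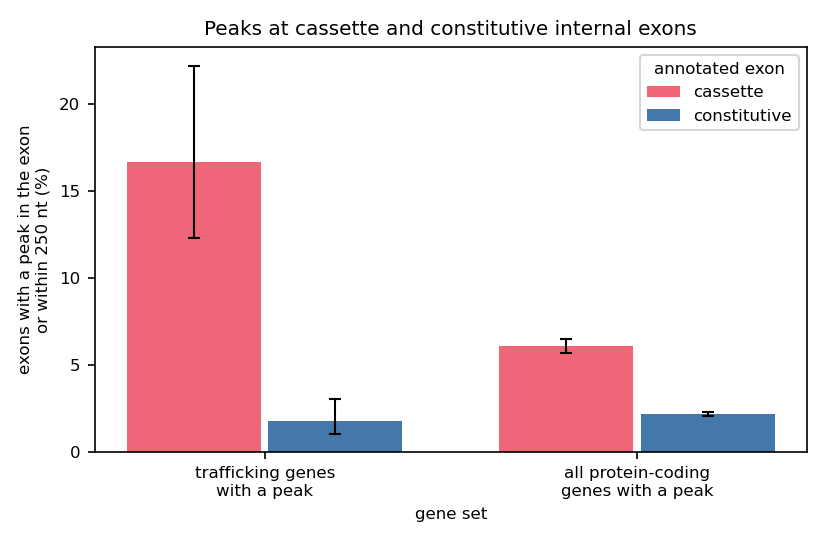
Share of internal exons that overlap a peak or lie within 250 nt of one (y axis, %) for cassette and constitutive exons, in the 41 trafficking genes with a peak and in all protein-coding genes with a peak. Bars are shares and error bars 95% Wilson intervals, which cover counting error only. The cassette share was 16.7% in the trafficking genes and 6.06% in all genes with a peak, which held fewer peaks each.

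A second measure took each cassette exon whose neighbours are joined directly to each other in another transcript, with both adjoining introns. These regions covered 15.9% of the span of the 41 genes and held 209 of their 318 peaks (65.7%, 60.3 to 70.7). In all protein-coding genes with a peak they covered 19.6% of the span and held 29.5% of 22257 pairs of gene and peak. Every peak lay in such a region in 9 of the 41 genes, NUMB, CLTB, PICALM, EPN2, BIN1, RAB11FIP5, SEC31A, SEC16A and EXOC7, and no peak did in 21 genes. Of these 21, AP3D1, HIP1, SNX2, SNX27, SYNJ2, FNBP1L, EHD4, EXOC2 and EXOC4 have no such region, so none of their peaks could lie in one. The share of span pools the genes, so long genes with few peaks for their length weigh on it, such as VPS13B (6.32% covered) and EXOC4 (0%). Without the 5 genes with most peaks, the regions covered 11.4% of the span and held 48.2% of the peaks. In those 5 genes they covered 93.0% of the span of NUMB, 72.8% of PICALM, 62.5% of SEC31A, 26.9% of BIN1 and 8.54% of DNM2.

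Exons that respond to QKI-5 were taken from a list of skipped exons whose inclusion changed with QKI-5 knockdown and in the epithelial to mesenchymal transition, a list made from RNA-seq and not from the peaks. It held 13 exons in 10 of the trafficking genes, 5 with inclusion higher with QKI-5 and 8 with inclusion lower. For 8 of the 13 a peak overlapped the exon or came within 250 nt of it, namely 3 of the 5 exons included more with QKI-5 and 5 of the 8 included less. Over the 322 exons of that list that matched an annotated exon of a protein-coding gene, 60 (18.6%) had such a peak. The 3 were exons 29 and 30 of SEC16A and exon 5 of CAST, and the 5 were exon 12 of NUMB, exon 10 of REPS1, exon 14 of DNM2 and the 2 forms of exon 22 of SEC31A. These 2 forms overlap and met the same peaks, yet each is counted in the 13 and in the 8. Exon numbers are those of the canonical transcript. The list was made in these cells, and the number is too small to set positions of the 2 classes against each other. The 59 genes were chosen with earlier results of these data known. Their count beside that of the 322 exons is therefore a description only.

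**Figure D5:**
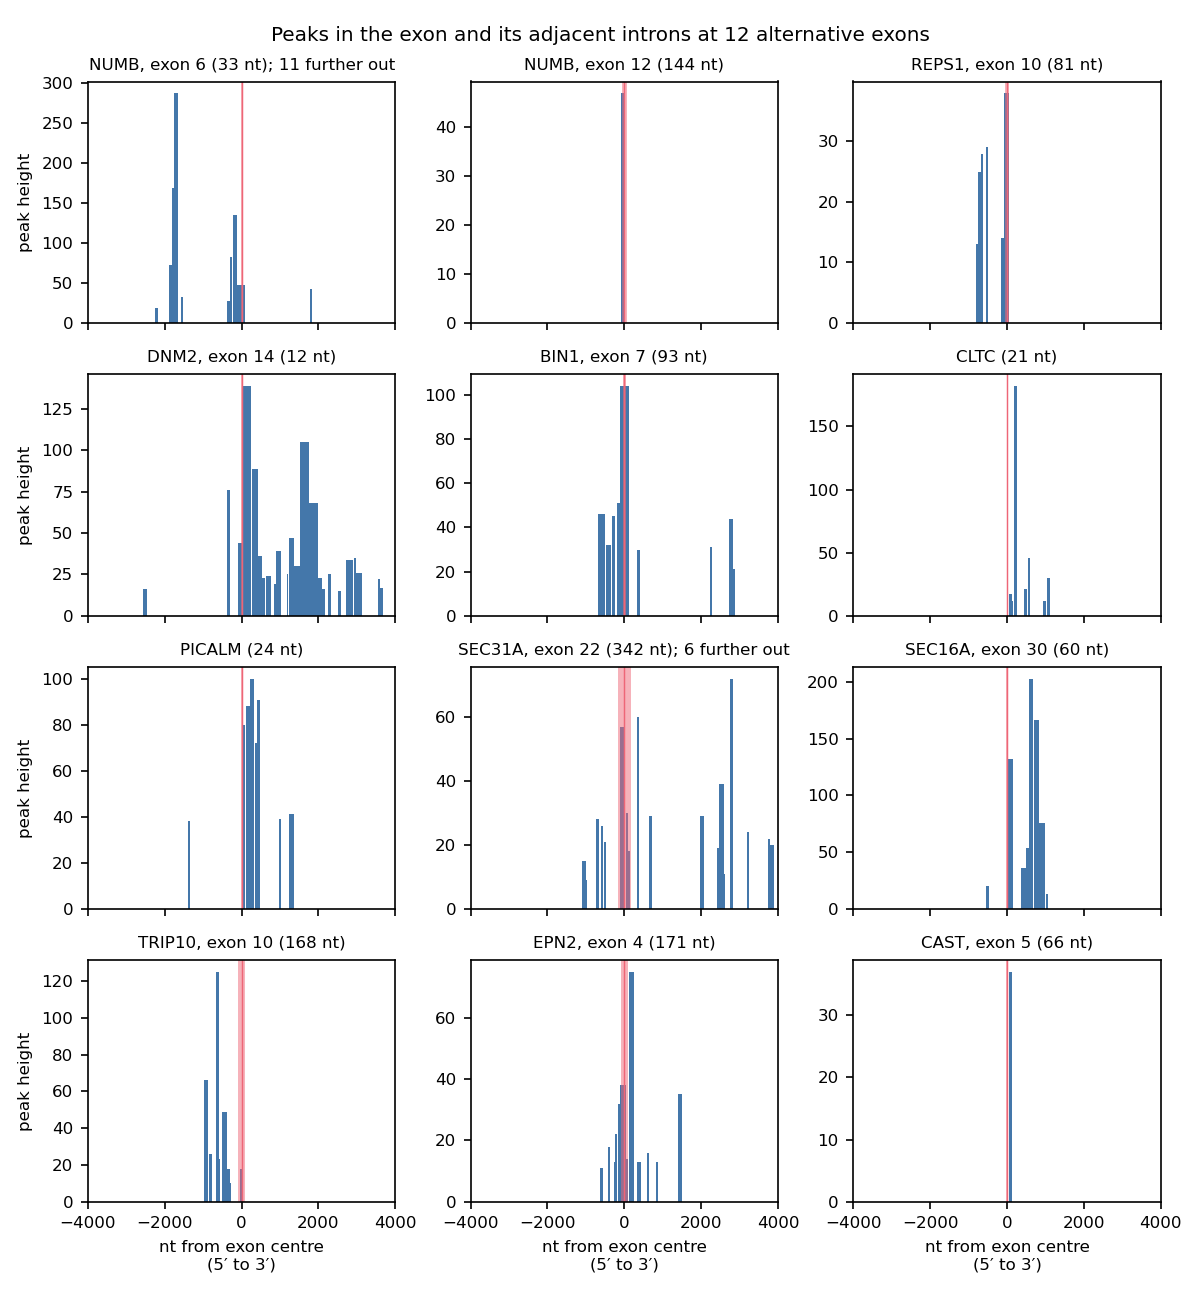
Peaks in and around 12 alternative exons, drawn as bars of their height (y axis) against distance from the exon centre (x axis, nt, 5′ to 3′ on the gene's strand), with the exon shaded in red and bars narrower than 40 nt widened to 40 nt. Peaks lie in the exon and its adjoining introns, and the number beyond 4000 nt is given in the title of a panel. At exon 14 of DNM2, at the CLTC exon of 21 nt and at exon 30 of SEC16A most peaks lay downstream, and at exon 10 of TRIP10 and exon 10 of REPS1 upstream.

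The clathrin coat genes among the 59 all had peaks, 32 in 4 genes. Of 5 other clathrin coat genes, 3 had a peak, with 6 peaks in all. CLTC, the clathrin heavy chain, had 9, of which 7 lay downstream of an alternative exon of 21 nt that the canonical transcript lacks (chr17:57764362-57764382). Their nearest edges were 53 nt and more from that exon, and the tallest, at 182, began 173 nt downstream. PICALM, which binds clathrin and phosphoinositides and governs the size of clathrin-coated vesicles, had 16 peaks, 8 of them in intron 17, which is 4.45 kb long. Of those 8, 7 lay downstream of an alternative exon of 24 nt (chr11:85689113-85689136), the nearest 19 nt away and the tallest, at 100, 206 nt away. The same 8 peaks all lay upstream of exon 18, another cassette exon, of 60 nt (chr11:85687666-85687725), the nearest 33 nt from it with a height of 41. The remaining PICALM peaks were 6 in intron 1, with heights of 16 to 55, 1 in intron 19 and 1 that overlapped exon 13. In the light chains the numbers were lower. CLTB had 4 peaks around exon 5, of 54 nt, with heights of 19, 16 and 42 on its upstream side and 27 on its downstream side, and CLTA had 3, with heights of 11, 43 and 13.

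Of the 10 adaptor genes of the AP and GGA families 5 had a peak, with 22 peaks and a median height of 20.5. AP3B1, the β subunit of the AP-3 complex that sorts cargo to lysosome-related organelles, had the tallest, at 85 in intron 20 and with ACTAAC, and 4 others with heights of 14 to 24. AP1G1, the γ subunit of AP-1, had 4 peaks downstream of an alternative exon of 9 nt (chr16:71801780-71801788), with heights of 19, 25, 17 and 19 at 17, 88, 172 and 264 nt, and another, with a height of 22, in an alternative exon of the 5′ UTR. AP2A2 and AP3D1 had 5 peaks each and AP2B1 had 2.

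NUMB, an endocytic adaptor with a PTB domain that counters Notch signalling, had 27 peaks on chromosome 14. Its exon 6, of 33 nt, encodes the insert that distinguishes the long form of the PTB domain, and 21 of the peaks lay in that exon or the adjoining introns. A peak with a height of 47 overlapped exon 6, peaks of 135 and 82 began 101 and 222 nt upstream, the second with ACTAAC, and a peak of 288 began 1648 nt upstream. Exon 12, of 144 nt (chr14:73745989-73746132), encodes an insert of the proline-rich region and is included less with QKI-5. It was overlapped by 1 peak with a height of 47, the only peak in the exon and its adjoining introns, whose sequence is printed above and has no TAAC. DAB2, another PTB-domain adaptor, for receptors of the LDL family, had 4 peaks with heights of 20 to 37, and 1 of them, with a height of 25, began 151 nt downstream of exon 9.

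Among the accessory proteins that help coats assemble, 4 of 9 genes had peaks. EPN2, an epsin, had 12 peaks, all in exon 4 or the introns on either side of it, and exon 4 (171 nt) had 5 upstream, 2 overlapping and 5 downstream. The 2 that overlapped it had heights of 38 and 14, and the tallest, at 75, began 28 nt downstream. REPS1, an EH-domain protein, had 8, with 6 at exon 10 (chr6:139247538-139247618), an 81-nt exon included less with QKI-5. A peak overlapped the exon with a height of 38, 1 began 46 nt upstream with a height of 14, and the other 4 upstream had heights of 13 to 29. EPS15L1, a relative of the adaptor EPS15, had 6 peaks, the tallest at 45 and with ACTAAC. Its exon 17, included less with QKI-5, had its nearest peak 5063 nt away, whereas exon 22 had a peak at 190 nt with a height of 20. EPN1 had a listed exon of 75 nt, included less with QKI-5, and no peak in the whole gene. HIP1, which links clathrin coats to actin, had 3 peaks, with a tallest of 29.

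The dynamins are the GTPases that sever vesicles, and DNM2, the form found in most tissues, had 46 peaks, more than any other trafficking gene. All but 4 lay in 2 clusters on chromosome 19. The first covered a pair of alternative exons of 139 nt each (chr19:10906737-10906875 and chr19:10908056-10908194), with 18 peaks in the exons and their introns. Within it, a peak of 76 overlapped the first exon, one of 155 began 276 nt after it, one of 54 overlapped the second exon, one of 114 lay downstream of it, and the tallest peak of all, at 379, began 578 nt downstream of the second exon. The second cluster lay at exon 14 (chr19:10919245-10919256), a 12-nt exon included less with QKI-5. A peak overlapped that exon with a height of 44, 2 lay upstream with heights of 16 and 76, and 21 lay downstream in intron 14, which is 3.68 kb long. The first of these, with a height of 139, began 40 nt downstream and is the ACTAAC peak printed above. DNM1, the neuronal dynamin, also has a listed exon of 12 nt, exon 18, included more with QKI-5, and it had 1 peak in the gene, with a height of 21, and none at that exon. DNM1L, which divides mitochondria and peroxisomes, had 1 with a height of 23.

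BAR-domain proteins and synaptojanins held 63 peaks in 6 of 8 genes. BIN1, amphiphysin 2, which bends membrane into tubules, had 32, all beside cassette exons. Of these 9 lay at exon 7, of 93 nt (chr2:127825739-127825831), and the tallest, at 104, overlapped the exon and is printed above with its ACTAAC. The other 23 lay between intron 11 and intron 15, a stretch with alternative exons 13, 14 and 15 that includes exons for the clathrin and AP-2 binding region, with a tallest height of 69. TRIP10 and FNBP1, the F-BAR proteins CIP4 and FBP17, showed a like arrangement, in that most of their peaks lay upstream of an alternative exon. TRIP10 had 7 peaks upstream of exon 10 (168 nt), 1 overlapping it with a height of 18, and the tallest, at 125, began 508 nt upstream, and intron 9, which holds the 7, is only 1.03 kb long. FNBP1 had 5 peaks upstream of exon 10 (183 nt) within 0.933 kb of intron 9, including the ACTAAC peak of 100 printed above, which began 640 nt upstream, and a peak of 124 in the 3′ UTR. SYNJ2, a phosphoinositide phosphatase, had 9 peaks, 8 of them in intron 2 with heights of 12 to 32. The gene has no annotated cassette exon beside which a peak could lie. SNX9, a partner of dynamin, had 3, with a tallest of 40, and FNBP1L had 1.

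The 10 genes for endosomal sorting and recycling carried few peaks, 14 in 7 genes, with heights of 19 to 42. This holds for these 10 only. Among 22 other genes of that role, which are not among the 59, 12 had a peak, with 79 peaks in all. RAB11FIP5, a RAB11 effector, had 1 peak with ACTAAC and a height of 42, which lay in exon 4, a coding exon of 2013 nt. EHD4, RAB11FIP3, SNX2, SNX14 and SNX27 had 2 or 3 each, and EHD2 had 1 in the 3′ UTR. The 2 peaks of SNX14 also lay within another protein-coding gene on the same strand.

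The COPII genes SEC31A and SEC16A held 37 peaks, and both have exons on the QKI-5 list. Of 10 other COPII genes, which are not among the 59, 4 had a peak, with 5 peaks in all. SEC31A, the outer coat subunit, had 29, of which 24 lay in exon 22 or its introns (chr4:83763293-83763634), an exon of 342 nt, or 297 nt in a second form, that is included less with QKI-5. There were 5 peaks upstream, 3 overlapping the exon with heights of 57, 30 and 18, and 16 downstream, where the tallest reached 72. Another peak, with a height of 55, overlapped exon 14 of 78 nt. SEC16A, the scaffold of COPII exit sites, had 8 peaks, and all of them lay around exons 29 and 30, which are 75 and 60 nt long and included more with QKI-5. A peak with a height of 132 and 2 ACTAAC sites overlapped exon 30 (chr9:139339504-139339563), a peak of 20 began 15 nt downstream of exon 29, and the 6 others lay downstream of exon 30 with heights from 13 to 203.

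The exocyst, VPS13 and remaining genes had mostly low peaks. All 4 exocyst genes among the 59 had peaks, 22 in number and none over 31. Of 5 other exocyst genes, only 1 had a peak, with 7 peaks in all. EXOC7 had 10, all in intron 6, which is 3.18 kb long, and none of them lay within 250 nt of a cassette exon. The authors attribute the splicing change of EXOC7 to the splicing regulator ESRP1 and not to QKI-5. EXOC4 had 10 spread over introns 9, 10, 11, 14 and 17, 4 of them with ACTAAC, while EXOC1 and EXOC2 had 1 each with a height of 24. The EXOC1 peak lay 15585 nt upstream of the only annotated cassette exon of the gene, of 45 nt (chr4:56755054-56755098), and no exon of EXOC1 is among the 13 listed, which are not all exons that may respond to QKI-5. The authors describe EXOC1 splicing as regulated by QKI, and their PCR panel places it with the events in which QKI causes exclusion. They selected the events of that panel as also predicted to be bound directly by QKI-5. VPS13B and VPS13D, which transfer lipids between membranes, had 8 and 3 peaks with tallest heights of 35 and 50. In VPS13B a peak of 13 overlapped an alternative exon of 142 nt, and the listed exon of VPS13D, exon 64, which is included less with QKI-5, had no peak in it or in its introns. CAV1, the main protein of caveolae, had 1 peak with a height of 34. CAST is calpastatin, an inhibitor of calpain proteases and not itself a transport protein. It had 8 peaks, and the tallest, at 37, began 15 nt downstream of exon 5 (chr5:96062498-96062563), which is included more with QKI-5, and is printed above with its ACTAAC. Exon 6 of CAST, of 42 nt and in the same class, had its nearest peak 520 nt upstream.

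Peaks within 1 gene often fell in 1 intron. In the 16 genes with at least 8 peaks, the intron with most peaks held a median of 52.6% of the gene's peaks in 6.04% of its span, and it held at least 50.0% of them in 10 genes (62.5%). Over the 722 protein-coding genes with at least 8 peaks for which the same could be computed, that intron held 64.7% of the peaks in 16.0% of the span, and 72.0% of these genes passed the same mark. The crowding was thus not more frequent in the trafficking genes, and the introns concerned took up less of the span. Where peaks within 100 nt of each other were joined, 12 runs of at least 5 peaks were formed, of which 3 lay in DNM2, 2 in BIN1 and 1 each in PICALM, EPN2, SYNJ2, FNBP1, TRIP10, SEC16A and EXOC7. The longest were 2 DNM2 runs of 8 peaks each, 1114 and 1159 nt long. The run of 1114 nt reached from intron 13 across exon 14 into intron 14, and that of 1159 nt lay in intron 14.

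Other genes of the same pathways, 99 in number and not among the 59, were counted in the same way, and 43 of them had a peak (43.4%), with 157 peaks in all. RAB7A, the GTPase of late endosomes, had 29 peaks with a tallest height of 184, VPS29, a retromer subunit, had 19 with a tallest of 168, and RAB5A, the GTPase of early endosomes, had 15 with a tallest of 140. AAK1, a kinase of the AP-2 complex, had 13 and EXOC6B, an exocyst subunit, had 7, with tallest heights of 36 and 38.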

How the data were processed

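QKI-5 HITS-CLIP was measured in mesHMLE cells, with 7 immunoprecipitated and 2 input libraries. The authors trimmed reads with cutadapt 1.3, mapped them to hg19 with TopHat2 2.0.10 and pooled libraries made with the same antibody. They called peaks per strand, against the control, with MACS2 2.1.1.20160309. The deposited height of a peak is a signal, a whole number of the pooled data, compared here only between peaks of that list. Pooling left no replicate error and no depth per library, so no test was run and shares carry 95% Wilson intervals.

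Peaks (18 mitochondrial ones left out) were assigned by centre and strand to GENCODE release 44 on GRCh37, whereas the authors used the iGenomes UCSC annotation. Classes were taken in the order 3′ UTR, 5′ UTR, coding exon, intron from protein-coding transcripts. Python 3.11.15, numpy 2.4.6, scipy 1.17.1, pysam 0.24.0 and matplotlib 3.10.9 were used. Tested on simulated data, the peak lookup gave a result unlike a direct search in 0 of 1000 trials.

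Genes, lists and measures were chosen with earlier results of these data known. Genes were named if they were among the 10 with most or tallest peaks, had a listed exon, had a peak within 250 nt of a cassette exon, or had no peak, and further genes were named after their values were seen. Alternatives changed the peak assignment, height minimum, class order, transcript types, motif and flank. The definition of cassette exons by joined neighbours, the share of peaks beside them, the fullest intron and the omission of genes were chosen after seeing the data. The sequence of 1 further peak chosen by the same rule is not reported here.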

Additional observations from a re-analysis of the deposited data

How the results depend on the processing

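Each result was recomputed only under the alternatives that apply to it. The count of genes with a peak was between 36 and 41 under the 3 that were run (overlap, height minimum, peaks in no other coding gene), the ACTAAC share between 11.0% and 14.2% under 3 (motif, extension, height minimum), and the count of listed exons with a peak 7 or 8 under 3 (flanks, height minimum). The median height was 24.0 or 25.0 with peaks in no other coding gene and with peaks merged, the 2 alternatives run for it. The number of peaks depended on how neighbours were treated: it was 183 with only peaks at or above the median height of the list, 23.0, and 181 with peaks within 100 nt merged. The intronic share was 70.8% when transcripts of all types were used and 97.5% when introns were taken before exons, by construction. The cassette exon share of 16.7% became 12.0% with only peaks at or above the median height, 10.9% with all transcript types, which add exons, 25.9% with joined neighbours and 10.2% without the 5 genes with most peaks. The share of peaks beside a cassette exon, 65.7%, was 72.7% with only the taller peaks, 48.2% without the 5 genes with most peaks and 58.2% without the genes that have a listed exon. No paired analysis was possible because the libraries were pooled before peak calling. Depth per library is unknown, so a gene without a peak may be below detection.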
